A study of Mus musculus with 24 samples.

Results

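The genes Il22, Il17a, Il17f and Csf2 encode the effector cytokines of group 3 innate lymphoid cells (ILC3s), lymphocytes that live in mucosal tissue and carry no antigen receptor. They are 4 of the 21631 protein-coding genes placed on the chromosomes used here. Every peak that overlapped one of the genes, or the 20 kb on either side of it, was taken from 24 peak lists. These windows held 25 of the 234820 peaks in all lists, 18 of H3K4me3 and 7 of CFP1.

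The lists come from CUT&Tag, a method that tethers a transposase to an antibody in permeabilised cells and so tags the DNA beside the antibody's target. H3K4me3, histone H3 trimethylated at lysine 4, and CFP1, the protein encoded by Cxxc1, were mapped in ILC3s sorted from mouse small intestine into the subsets CCR6+, NKp46+ and DN. Cells of Cxxc1flox/flox mice, whose floxed alleles meet no Cre (WT below), were set against cells of mice that carry the same floxed alleles together with a Cre (KO below); both genotypes thus carry the floxed alleles. Each of the 12 combinations of antibody, genotype and subset had 2 libraries, with 100000 cells per library in the labels. The mice were labelled 6 to 8 weeks old, but the protocols also speak of aged and young animals and of a culture medium, so age and handling are not settled. No label says that replicates, or the 3 subsets of 1 replicate number, are from different animals. The p-values below therefore measure the spread among these libraries alone, and that spread may be technical.

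Interleukin-22 acts on epithelial cells and induces antimicrobial proteins and mucus, interleukin-17A and interleukin-17F draw in neutrophils, and GM-CSF, the product of Csf2, acts on myeloid cells. ILC3s release these cytokines on stimulation by interleukin-23 and interleukin-1β, through transcription factors that include STAT3. CFP1 binds unmethylated CG dinucleotides through its CXXC domain and is a subunit of the SETD1A and SETD1B complexes, which place H3K4me3 at the starts of active genes. Peaks show where the mark or the protein was mapped, and no RNA or protein of the cytokines was measured here.

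Since CFP1 recognises CG, the promoters are shown first, from 250 bases before to 50 bases after the annotated start site, 5′ to 3′ in the direction of the gene, with every CG in capitals. The sequences are RefSeq's, on GRCm38.p6 (the assembly of mm10); all 4 genes had one. The Il22 promoter lies at chr10:118204714-118205013 on the plus strand, Il17a at chr1:20730655-20730954 on the plus strand, Il17f at chr1:20784221-20784520 on the minus strand, and Csf2 at chr11:54249850-54250149 on the minus strand.
Il22: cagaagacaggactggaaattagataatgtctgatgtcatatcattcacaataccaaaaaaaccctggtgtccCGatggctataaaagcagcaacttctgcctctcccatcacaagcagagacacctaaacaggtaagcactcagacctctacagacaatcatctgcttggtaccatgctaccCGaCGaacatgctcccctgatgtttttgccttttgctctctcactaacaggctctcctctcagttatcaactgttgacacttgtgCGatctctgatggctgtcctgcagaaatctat
Il17a: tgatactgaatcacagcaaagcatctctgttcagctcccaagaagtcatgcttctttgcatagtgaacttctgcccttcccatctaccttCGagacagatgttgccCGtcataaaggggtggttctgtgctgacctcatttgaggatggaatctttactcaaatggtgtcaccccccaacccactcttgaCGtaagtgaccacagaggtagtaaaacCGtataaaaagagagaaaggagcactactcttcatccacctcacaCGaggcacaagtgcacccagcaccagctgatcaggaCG
Il17f: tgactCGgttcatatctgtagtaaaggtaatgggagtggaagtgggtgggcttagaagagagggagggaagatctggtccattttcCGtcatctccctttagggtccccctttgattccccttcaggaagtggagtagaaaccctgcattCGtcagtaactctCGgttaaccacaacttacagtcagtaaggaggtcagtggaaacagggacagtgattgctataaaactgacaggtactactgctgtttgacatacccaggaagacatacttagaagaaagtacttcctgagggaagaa
Csf2: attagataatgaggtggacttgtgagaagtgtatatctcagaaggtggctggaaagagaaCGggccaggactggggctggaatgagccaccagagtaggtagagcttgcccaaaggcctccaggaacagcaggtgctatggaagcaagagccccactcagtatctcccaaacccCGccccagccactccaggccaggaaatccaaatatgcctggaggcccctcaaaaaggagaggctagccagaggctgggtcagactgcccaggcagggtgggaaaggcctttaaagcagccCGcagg

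All 4 promoters were poor in CG. The windows held 4 CG in Il22, 6 in Il17a, 4 in Il17f and 3 in Csf2. Among 21045 promoters of protein-coding genes, the median was 13. The median was 23 in the 8647 promoters that an H3K4me3 peak overlapped in 12 of 12 libraries, and 4 in the 9739 that none overlapped. Promoters with as many CG as the member or fewer made up 27.7% for Il22 and Il17f, 35.1% for Il17a and 23.3% for Csf2. A promoter with the count of Il22 or Il17f was without H3K4me3 in all 12 libraries in 85.6% of cases. With the count of Il17a this was 75.8%, and with that of Csf2 89.0%. The 4 cytokine promoters therefore lay in the CG range in which most promoters carried no peak.

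**Figure D1:**
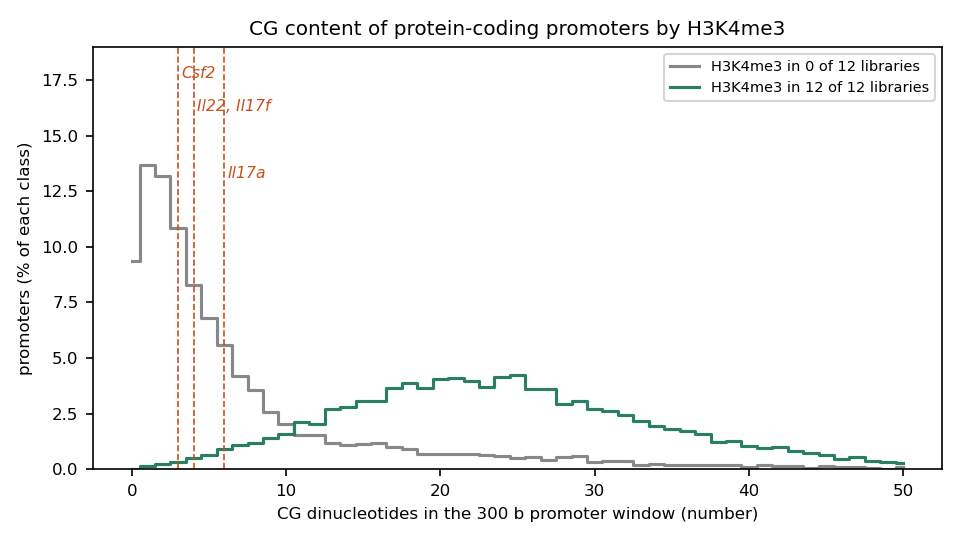
Distribution of CG dinucleotides per 300 b promoter window (x axis, number) as a percentage of promoters (y axis) with H3K4me3 in 0 of 12 libraries (grey) and in 12 of 12 (green), cut at 50 CG. Dashed lines mark the 4 cytokine genes, at 3, 4 and 6 CG, near the median of 4 of the grey class and below the median of 23 of the green class.

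Motifs of factors known to act on these genes, 4 in all, were also looked up on both strands, with positions counted from the start site. TATAAA, the TATA box, stood at -31 in Il17a, at -29 in Il17f and at -170 in Il22, and 12.7% of all promoters hold it. The Il17f and Il22 matches lie inside the annotated spans, where the start used is not the first base of the gene. AGGTCA, the core of many nuclear receptor sites, stood at -58 in Il17f and, on the opposite strand, at -120 in Il17a (14.6% of all promoters). TGANTCA, the AP-1 motif, stood at -244 in Il17a (7.04% of all promoters). TTCNNNGAA, the STAT motif, was in none of the 4 (7.76% of all promoters), and the Csf2 window held none of the 4 motifs. Matches within a promoter do not overlap one another, and a match is a string of letters, not a bound site.

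The libraries differed in ways that touch every result on these genes. CFP1 lists held 4574 to 7983 peaks in WT. In KO, 4 lists held 714 to 1312, but the libraries labelled KO NKp46+ replicate 2 and KO DN replicate 2 held 4891 and 8881, within or above the WT range, so CFP1 comparisons of genotypes are also given without them, a choice made after the data were seen. Since these 2 were picked by their number of CFP1 peaks, leaving them out favours fewer KO peaks at any gene. H3K4me3 lists held 11794 to 18127 peaks and covered 9.77 to 20.9 Mb, and all 6 of replicate 2 covered more than any of replicate 1. KO CCR6+ replicate 1 and KO DN replicate 1 covered the least, 9.77 and 10.7 Mb. Cxxc1 itself had H3K4me3 in 6 of 6 libraries of each genotype and CFP1 in 2 of 6 WT and 0 of 6 KO, which does not check the deletion. Depth is unknown, and an absent peak means that none was called. H3K4me3 within 1 kb of the 7 ILC3 markers was called in 7 to 12 of 12 libraries. By genotype, each WT library held all 7 and a KO library 4 to 7, and Il23r had it in 6 WT and 1 KO. Ncr1, which encodes NKp46, had it in 4 of 4 NKp46+ libraries and 1 of 4 of each other subset. The other subset markers parted the subsets less or not at all. Klrb1c had it in 3 NKp46+, 2 DN and 1 CCR6+ libraries, and Ccr6 in 3 CCR6+ and 2 of each other subset. Ccr6 differed more by genotype, with 6 WT and 1 KO libraries, while Ncr1 and Klrb1c each had 4 WT and 2 KO. Whether the cells or the lists differ between genotypes was not tested. Of the 4 NKp46+ markers 2 had it in 12 of 12 libraries, as did 2 of the 3 CCR6+ markers. Of the markers of other cells, 3 of the 4 of B cells had none, Ms4a1 and Pax5 among them, and the other had 1 library. Of the myeloid markers Csf1r had none, Lyz2 and Itgam 1 library each and Cd14 10, and of the epithelial markers Vil1 had none, Krt8 2, Cdh1 10 and Epcam 12. Of the ILC2 markers Klrg1 and Il13 had none, Il1rl1 11 and Gata3 12, while the 3 stromal markers had it in 7 to 9 libraries and the 6 T cell markers in 4 to 11. A WT library held 3 to 6 of those 6 T cell markers and a KO library 1 to 6, and their part in the results below was not tested.

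Csf2 was the member with regular H3K4me3. The gene, on the minus strand at chr11:54247270-54249899, held 11 H3K4me3 peaks in 10 of 12 libraries, all inside 1 merged region, chr11:54247627-54249950. The strongest point of 10 peaks lay 309 to 778 b after the start site, inside the gene. The other, a second peak of WT DN replicate 1, had it at 1714 b. The annotated span of the long noncoding RNA Gm12223 contains Csf2, so these peaks lie in both; Il3, which encodes a related myeloid growth factor, is also in the window, but no peak there lay outside Csf2 and its start. None of the 12 CFP1 lists had a peak in the window. A window with 0 CFP1 peaks was the commonest outcome, at 43.4% of all protein-coding genes.

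The bases covered by H3K4me3 in the Csf2 window are given per library. In CCR6+ cells they were 786 b and 1925 b in WT replicates 1 and 2, and 0 b and 1854 b in KO. In NKp46+ cells they were 666 b and 2136 b in WT, and 507 b and 1403 b in KO. In DN cells they were 1336 b and 2129 b in WT, and 0 b and 1723 b in KO. The KO library was below the WT library of the same subset and replicate number in 6 of 6 pairs, while the 2 genotypes overlapped when replicates were pooled. This held in 6 of 6 pairs also per Mb covered in the library. Of 14945 genes tested, 3.42% were lower in KO in all 6 pairs (4.72% per Mb) and 0.375% higher in all 6. Csf2 thus belongs to a class of 511 genes.

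**Figure D2:**
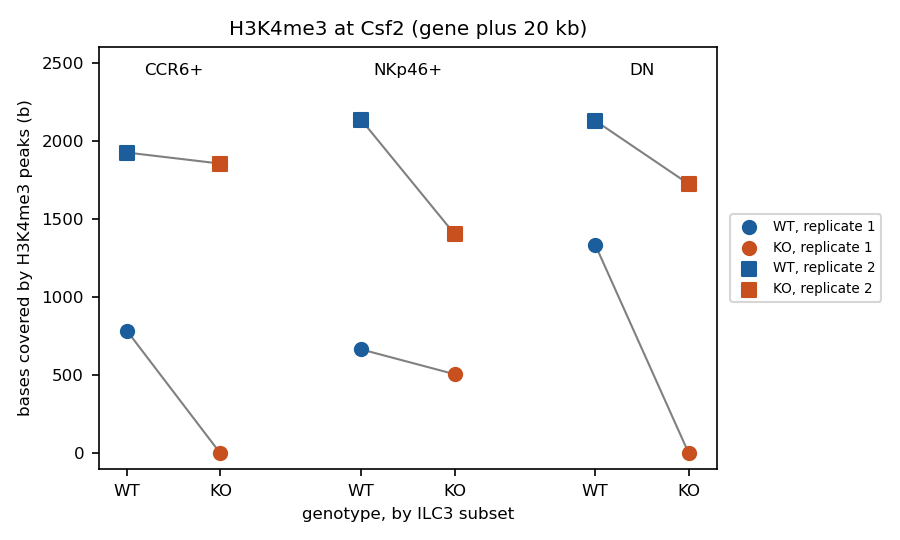
Bases covered by H3K4me3 peaks in the Csf2 window (y axis, b) for each WT library (blue) and KO library (orange), by subset along the x axis; circles are replicate 1, squares replicate 2, and a grey line joins the libraries of 1 subset and number. Every line runs downward from WT to KO, and each square lies above every circle.

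WT libraries averaged 1496 ± 665 b and KO libraries 915 ± 850 b (SD, n = 6 each). The difference, KO minus WT, was -582 b (SE over the 6 pairs 192). It did not pass the exact two-sided permutation of genotype within subsets (p = 0.259, Benjamini-Hochberg adjusted p = 1). With the replicate numbers as pairs, the exact two-sided sign-flip gave p = 0.0312, the smallest that 6 pairs allow, and an adjusted p of 0.732 (Benjamini-Hochberg). Neither test called any of the 14945 genes (0%), and 215 and 567 genes had an unadjusted p under 0.05. The permutation needs 2768 genes at its smallest p of 0.00926 for 1 call, and the sign-flip needs more. The 0% therefore does not show that genes were unchanged. By presence, 6 of 6 WT and 4 of 6 KO libraries had a peak (Fisher's exact test, p = 0.455, adjusted p = 1). Of 1936 genes so tested, 24.5% had fewer KO than WT libraries (14.9% fewer by 2 or more), 55.3% more, and 0% were called. With 6 libraries per genotype Fisher's test also has a floor to its p, so this 0% does not show lack of change either.

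The 2 KO libraries without a peak were those with the smallest H3K4me3 coverage. Without both, the difference was 14.3 b (exact permutation p = 0.981), but that leaves KO libraries mostly of replicate 2 against WT libraries of both. Leaving out their WT partners too leaves 4 of the 6 pairs given above, with differences of -733 to -71 b (mean -342 b). As all 6 were lower in KO, these 4 had to be, so their direction adds nothing. Within replicate 2, where all 6 libraries had a peak, KO ranged from 1403 to 1854 b and WT from 1925 to 2136 b, with no overlap. The same order was found in 11.8% of the genes tested and the reverse in 18.9%. Within replicate 1, KO (0 to 507 b) lay below WT (666 to 1336 b), an order shared by 5.29% of genes, with the reverse in 0.321%. The gap between replicate numbers exceeded that between genotypes: the means of replicates 1 and 2 were 929 and 2063 b in WT and 169 and 1660 b in KO. All 6 libraries of replicate 2 lay above all 6 of replicate 1, as in 47.6% of genes.

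The peaks also differed in where they ended. Only those of KO CCR6+ replicate 2 and KO NKp46+ replicate 2 reached the start site and the promoter printed above, whereas the promoter was covered in 0 of 6 WT libraries. The margins were small. These KO peaks reached -0.047 and -0.051 kb from the start site, and the nearest WT peaks stopped 0.128 to 0.207 kb after it. Both KO libraries also had the largest H3K4me3 coverage, 20.9 and 20.4 Mb. Whether genotype bears on these ends was not tested. The authors' fold enrichment, a value within each list, was 3.72 to 9.04 for Csf2. These folds exceeded those of 4.03% to 51.9% of the peaks in the same list, so Csf2 was among the weaker or middling H3K4me3 peaks throughout.

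At Csf2 the subsets overlapped. Covered bases averaged 1297 ± 923 b in DN, 1178 ± 749 b in NKp46+ and 1141 ± 922 b in CCR6+ (SD, n = 4 each), an order in which no neighbours differed beyond their spread. Each subset against the others gave an exact permutation p of 0.751, 0.942 and 0.831 in that order, and 0 of 14945 genes were called for any subset after Benjamini-Hochberg adjustment (0.836%, 0.569% and 0.877% had an unadjusted p under 0.05). The smallest p this permutation allows is 0.00444, so many genes would have to reach it for 1 call. That 0 were called therefore does not show that the subsets were alike. NKp46+ was the subset with a Csf2 peak in 4 of 4 libraries, against 3 of 4 in the others.

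Past the window, 34.6 kb downstream of the Csf2 start and still inside Gm12223, lay the nearest further H3K4me3, noted after the data were seen. The region chr11:54214608-54215275 had H3K4me3 in 4 WT and 1 KO libraries (Fisher's exact p = 0.242, adjusted p = 1) and CFP1, over nearly the same bases, in 3 WT and 1 KO (p = 0.545, adjusted p = 0.899). Without the 2 long KO lists CFP1 was in 3 of 6 WT and 0 of 4 KO there (Fisher's exact p = 0.2, adjusted p = 0.301). The nearest CFP1 peak of all, 25.2 kb downstream, was in 2 WT and 0 KO libraries.

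Il22 had no peak of either kind on the gene. It lies on the plus strand at chr10:118204584-118210047, with its start site at base 118204964. In 0 of 12 H3K4me3 libraries and 0 of 12 CFP1 libraries did a peak come within 1 kb of it; that is so for 38.0% of genes for H3K4me3 and 57.5% for CFP1. All 8 peaks of its window, 5 of CFP1 and 3 of H3K4me3, instead fell on 1 stretch of 641 b upstream, chr10:118194816-118195456, at -10.1 to -9.51 kb from the start site and outside any annotated gene.

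CFP1 at this upstream stretch was called in WT CCR6+, WT NKp46+, WT DN, KO NKp46+ and KO DN, each time in replicate 2. It was called in 0 of 6 libraries of replicate 1 and 5 of 6 of replicate 2, a pattern that 1.42% of all 21631 genes shared or exceeded. The exception in replicate 2, KO CCR6+, had the short list of 1250 peaks. The peaks were 404 to 597 b wide, and their summits in 4 of 5 libraries lay between bases 118195137 and 118195147. Their folds were 4.98 in WT CCR6+, 3.89 in WT NKp46+, 7.46 in WT DN, 4.56 in KO NKp46+ and 8.05 in KO DN. In KO DN replicate 2 this was above 89.5% of that list's peaks, in WT DN replicate 2 above 80.6% and in WT NKp46+ replicate 2 above 15.6%, so the same stretch ranked high in DN libraries of both genotypes.

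Genotypes did not separate there: 3 of 6 WT and 2 of 6 KO libraries had CFP1 (Fisher's exact p = 1, adjusted p = 1), where 89.8% of 9543 genes tested had fewer KO than WT libraries, 6.33% with an unadjusted p under 0.05, and 0% were called. Without the 2 long KO lists the counts are 3 of 6 and 0 of 4 (Fisher's exact p = 0.2, adjusted p = 0.252 by Benjamini-Hochberg), while over all genes 1348 are then called, against 444 without KO DN replicate 2 alone. H3K4me3 at the stretch was called in WT DN replicate 1 (346 b), WT NKp46+ replicate 2 (382 b) and KO NKp46+ replicate 2 (392 b). Covered bases averaged 121 ± 188 b in WT and 65.3 ± 160 b in KO (SD, n = 6), a difference of -56 b (exact permutation p = 1, adjusted p = 1). The difference turned to 7.67 b without WT NKp46+ replicate 2, 9.33 b without KO NKp46+ replicate 1 and 1.67 b without WT DN replicate 1. With replicate numbers matched, CFP1 and H3K4me3 were thus called together in the NKp46+ cells of replicate 2 in both genotypes. CFP1 was called alone in 3 libraries, though in WT DN replicate 2 it overlapped the H3K4me3 of WT DN replicate 1. CFP1 away from H3K4me3 was a trait of replicate 2 in general: 9.66% to 15.2% of the peaks in its CFP1 lists overlapped no H3K4me3 of the same genotype and subset, against 1.07% to 3.08% in replicate 1.

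Farther upstream, outside the 20 kb and noted after the data were seen, was a stretch that did part the genotypes by count. The region chr10:118172139-118172990, 32 kb before the Il22 start and without an annotated gene within 1 kb, had H3K4me3 in 6 of 6 WT libraries and in 1 of 6 KO libraries, KO NKp46+ replicate 2. The peaks were 321 to 752 b wide in WT and 610 b in KO, with folds of 3.27 to 5.84 and 3.54. Fisher's exact test gave p = 0.0152 and an adjusted p of 0.998, with 0 of 8313 merged regions called (0%) and 108 at an unadjusted p under 0.05; 0.469% of the regions had 6 WT and at most 1 KO libraries. CFP1 was called over it in WT CCR6+ replicates 1 and 2, WT DN replicate 2 and KO DN replicate 2, which leaves 3 of 6 WT and 0 of 4 KO without the long KO lists (Fisher's exact p = 0.2, adjusted p = 0.301). Widening the Il22 window to 50 kb, chosen after the data were seen, made its H3K4me3 difference -491 b (exact permutation p = 0.0556, adjusted p = 1).

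Il22 has a near-identical copy, Iltifb, at chr10:118289629-118295038, 79.6 kb downstream with 6 pseudogenes between. It had H3K4me3 inside the gene in WT CCR6+ replicate 1, WT NKp46+ replicate 2 and WT DN replicate 2, and in 0 of 6 KO libraries (Fisher's exact p = 0.182, adjusted p = 0.933). Over the 107 bases of promoter that align, 101 were identical. The stretches are printed with the 6 differing bases in capitals, from base -79 to 27 around the Il22 start.
Il22: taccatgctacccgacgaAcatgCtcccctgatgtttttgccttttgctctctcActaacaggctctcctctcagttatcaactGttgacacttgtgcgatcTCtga
Iltifb: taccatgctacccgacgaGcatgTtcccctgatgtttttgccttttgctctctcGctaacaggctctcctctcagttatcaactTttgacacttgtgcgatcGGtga
How reads that map to both copies were treated is not given in the sources used here, so the absence of peaks at Il22 and their presence at Iltifb are both uncertain.

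**Figure D3:**
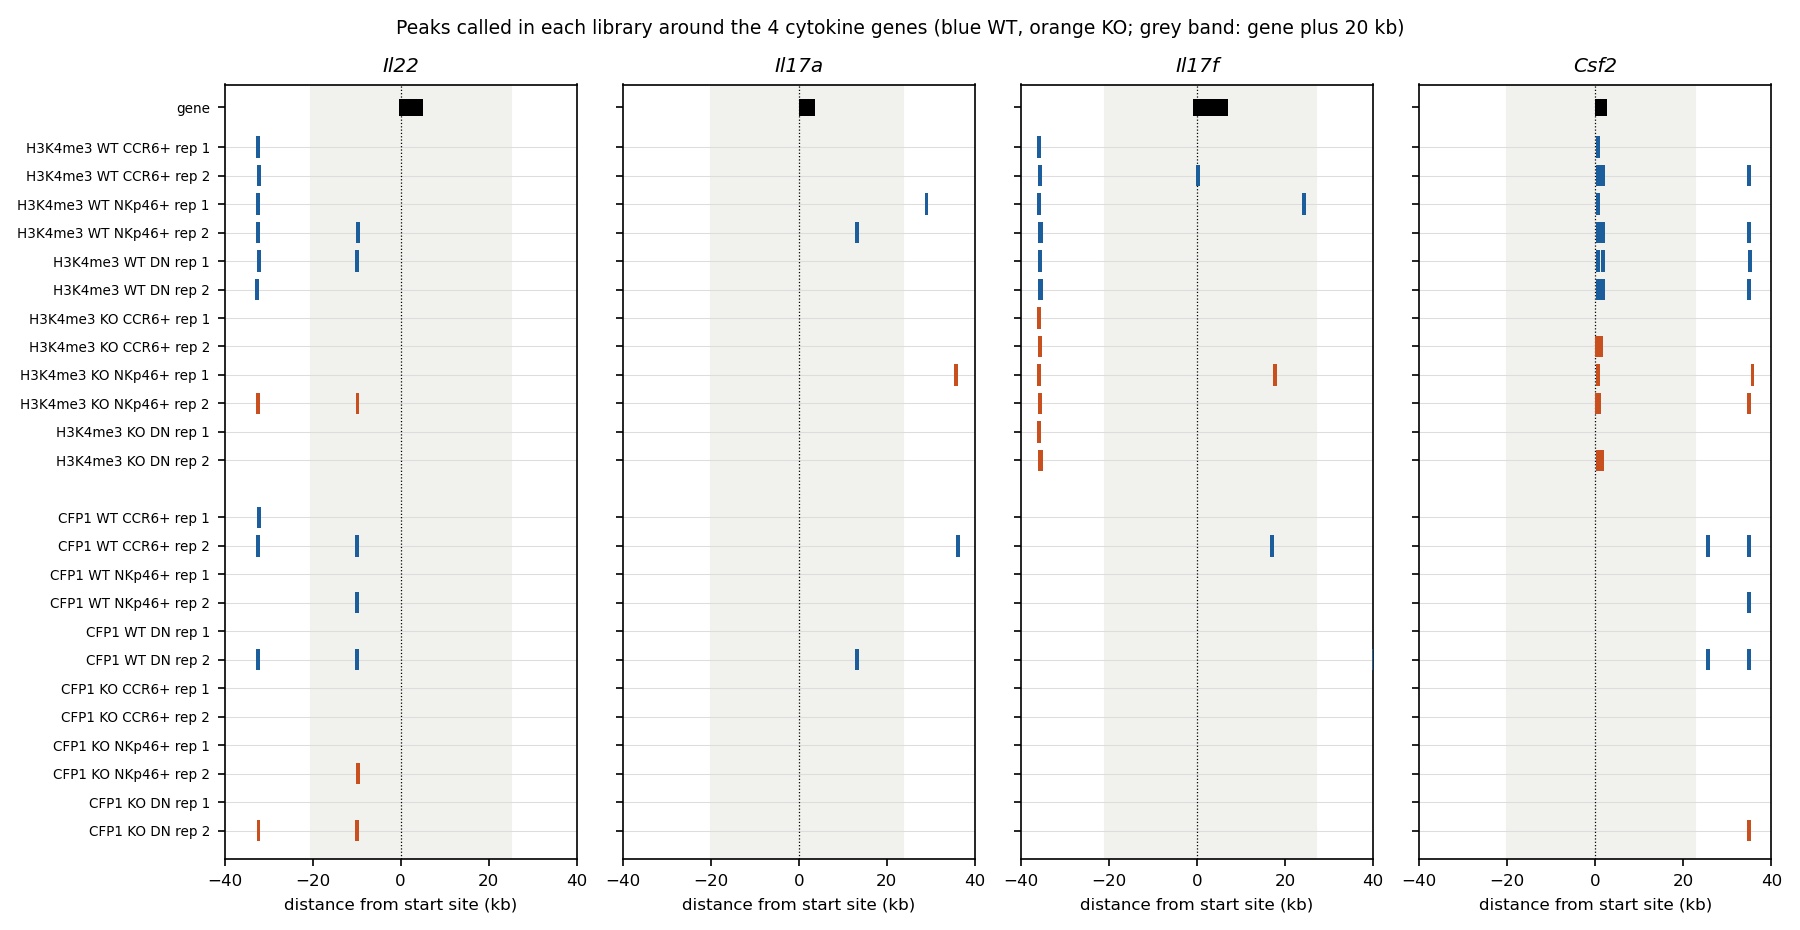
Peaks of each of the 24 libraries (rows; blue WT, orange KO; H3K4me3 above, CFP1 below) by distance from the start site in kb along the x axis, positive in the direction of the gene; black bars are the genes, grey bands the windows of the gene plus 20 kb, and narrow peaks are drawn widened to stay visible. Csf2 alone has a column of H3K4me3 inside the gene, mostly just past its start, and it also has peaks of both kinds near 35 kb. Il22 has columns near -10 and -32 kb. Il17a has scattered single peaks, and Il17f has these beside a full H3K4me3 column outside its window, at the Mcm3 start.

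The interleukin-17 genes were nearly bare. Il17a, on the plus strand at chr1:20730905-20734496, had 2 peaks in 24 libraries, both at chr1:20743867-20744383, about 13 kb past its start. One was CFP1 in WT DN replicate 2 (448 b, fold 5.83) and the other H3K4me3 in WT NKp46+ replicate 2 (367 b, fold 4.17). H3K4me3 thus covered 0 b in 11 of 12 libraries, and with 1 library no test was made. Upstream, the next H3K4me3 was 3633 to 4042 kb away, at Jph1 or Ly96, so Il17a stood at the edge of a long stretch without the mark in these lists.

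Il17f, on the minus strand at chr1:20777146-20785274 with its start at 20784270, had an H3K4me3 peak over its start in 1 library, WT CCR6+ replicate 2. That peak, chr1:20783801-20784330, was 530 b wide with a fold of 4.12, which exceeded 8.16% of its list. Past the end of the gene, H3K4me3 was called at chr1:20759797-20760059 in WT NKp46+ replicate 1 and at chr1:20766474-20766833 in KO NKp46+ replicate 1, and CFP1 at chr1:20766867-20767495 in WT CCR6+ replicate 2. No position held a peak in 2 libraries. Covered bases of H3K4me3 averaged 132 ± 221 b in WT and 60 ± 147 b in KO (SD, n = 6), a difference of -72.2 b (exact permutation p = 0.833, adjusted p = 1), which turned to 16.2 b without WT CCR6+ replicate 2. The nearest regular H3K4me3 was at the start of Mcm3, a replication helicase gene 35.1 to 35.6 kb upstream of Il17f, in 12 of 12 libraries, so the mark was mapped close by in every library in which Il17f lacked it.

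Across the subsets, H3K4me3 in the windows of Il22, Il17a and Il17f was called in NKp46+ libraries 2, 1 and 2 times, in DN libraries 1, 0 and 0 times and in CCR6+ libraries 0, 0 and 1 times. For Il22, NKp46+ averaged 194 ± 223 b, DN 86.5 ± 173 b and CCR6+ 0 b in 4 of 4 libraries (SD, n = 4). NKp46+ against the others gave an exact permutation p of 0.111, DN 0.689 and CCR6+ 0.378, each with a Benjamini-Hochberg adjusted p of 1. For Il17f, the exact permutation p was 0.511 for NKp46+, 0.689 for CCR6+ and 0.422 for DN (adjusted p = 1 each). In these orders neighbours did not differ beyond their spread.

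The genes whose covered bases followed those of a member most closely over the 12 libraries are given as a description. For Csf2 they were Ppif (r = 0.988), Rnps1 (0.986), Tbrg4 (0.983) and Slc3a2 (0.982), each with H3K4me3 in 12 of 12 libraries. Of 14295 genes compared, 2221 had r over 0.9, and all points share the same 12 libraries, whose total coverage differed by replicate number; correlations were not computed within a number. For Il22 they were Bub1b (0.796), Klrb1a (0.789), Rlim (0.759) and Kdm8 (0.745), and for Il17f Tnip3 (0.859), Slc18a2 (0.795), Sgpl1 (0.789) and Depp1 (0.731). For the last 2 members the likeness rests on the 3 libraries with a peak, and Il17a, with 1, was not compared.

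Around the 4 cytokines, the genes of their pathway were described by list, at gene plus 20 kb. Among 18 other cytokine genes, H3K4me3 was called in fewer KO than WT libraries in 2, more in 5 and equally many in 11, and 0 passed the test. Over all genes 3.80% had fewer and 6.96% more. Il4 and Il13, neighbouring type 2 cytokine genes that share their peaks, had it in 3 WT and 6 KO libraries, the opposite order to Iltifb. Il3 had the values of Csf2, from the same peaks. CFP1 was called in fewer KO libraries in 6 and more in 1 of the 18, beside 47.5% fewer and 3.43% more over all genes (89.8% fewer among the genes tested). Without the long KO lists 8 of the 18 had a lower share of KO libraries, 0 a higher share and 0 passed, where 1348 of 8956 genes tested (15.1%) passed. By covered bases of H3K4me3, 12 of 17 tested were lower in KO and 5 higher, with a median difference of -63.2 b, beside 58.0% lower and a median of -32.3 b over all genes tested. Il17c, an epithelial relative of interleukin-17, and Il5, a growth factor of eosinophils, had CFP1 in 6 WT and 3 KO libraries, and Iltifb in 3 and 1.

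Among the 10 receptor genes of the member cytokines, H3K4me3 was called in fewer KO libraries in 0, more in 2 and equally many in 8. CFP1 was called in fewer KO libraries in 6 and more in 0, with 0 passing, again beside 47.5% fewer over all genes and 89.8% among those tested. Il10rb, a chain of the interleukin-22 receptor, had CFP1 in 6 WT and 1 KO libraries, Il17ra, the shared chain of the interleukin-17 receptors, in 6 and 2, and the neighbouring Il17rc and Il17re in 6 and 3. Without the long KO lists, Il10rb and Il17ra had CFP1 in 6 of 6 WT and 0 of 4 KO. Both passed (Fisher's exact p = 0.00476, Benjamini-Hochberg adjusted p = 0.0316 each), 2 of the 5 tested in this list. So did 15.1% of the 8956 genes then tested. Of all genes 51.5% then had a lower share of KO libraries and 0.402% a higher share. The lists were left out for their length, so these passes cannot tell a genotype effect from that choice. The median difference over the list was -1 library for CFP1 and 0 over all genes. By covered bases of H3K4me3, 5 of 7 tested were lower in KO and 2 higher, with a median difference of -345 b. Of all genes tested 58.0% were lower, with a median of -32.3 b.

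Receptors through which ILC3s are induced to release these cytokines made up a list of 10 genes. H3K4me3 was called in fewer KO libraries in 4 of them, more in 0, and CFP1 in fewer in 8 of 10 and more in 0, with 0 passing in either; 9 were tested for CFP1, and 89.8% of all genes tested had fewer KO libraries. Over all genes 3.80% had H3K4me3 in fewer KO libraries, and 47.5% had CFP1 in fewer. By covered bases of H3K4me3, 10 of 10 were lower in KO, with a median difference of -1035 b, and 4 were lower in all 6 pairs. Of all genes tested 58.0% were lower, with a median of -32.3 b, and 3.42% were lower in all 6 pairs. Differences in bases were not scaled to how much of each window was covered, so these medians are not on a like footing. Il23r, the interleukin-23 receptor, had H3K4me3 in 6 WT and 1 KO libraries (Fisher's exact p = 0.0152, adjusted p = 0.752) and covered 2935 b on average in WT and 204 b in KO. Il1r1, the interleukin-1 receptor, covered 6301 b in WT and 1914 b in KO; it is named after its values were seen. Both were lower in 6 of 6 pairs with an exact permutation p of 0.00926, the smallest possible, and a Benjamini-Hochberg adjusted p of 1; 0.984% of genes had an unadjusted p under 0.05 with less in KO. CFP1 was called at Il23r in 3 WT and 0 KO libraries, and at Tnfrsf25, the receptor of the cytokine TL1A, in 6 and 2. Without the long KO lists Tnfrsf25 alone of the 8 tested passed, with 6 of 6 WT and 0 of 4 KO libraries (Fisher's exact p = 0.00476, Benjamini-Hochberg adjusted p = 0.0316). Of all genes then tested 15.1% passed, and the pass cannot be told apart from the choice of lists.

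Among the 14 transcription factor genes, H3K4me3 was present in 12 of 12 libraries in 13, beside 58.2% of all genes. It covered fewer bases in KO in 14 of 14, with a median difference of -661 b and 0 at an unadjusted p under 0.05. Of all genes tested 58.0% were lower, with a median of -32.3 b, again without scaling to the bases covered. CFP1 was called in fewer KO libraries in 11 and more in 1, with 0 passing of 12 tested. Fewer KO libraries were found in 47.5% of all genes and in 89.8% of those tested. Ahr, the aryl hydrocarbon receptor, had CFP1 in 5 WT and 1 KO libraries, Nfkbiz, a nuclear cofactor of NF-κB, in 6 and 2, Maf in 6 and 3, and Gata3 in 3 and 0. Without the long KO lists Nfkbiz alone of the 12 passed, with 6 of 6 WT and 0 of 4 KO libraries (Fisher's exact p = 0.00476, Benjamini-Hochberg adjusted p = 0.0316). Again 15.1% of all genes then tested passed, with the same limit from the choice of lists. CFP1 was called in at least 1 library at 14 of these 14 genes; among the members it was in 5 libraries at Il22, 1 each at Il17a and Il17f and 0 at Csf2, and 43.4% of all genes had 0.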

How the data were processed

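Peaks of CFP1 and H3K4me3 were measured by CUT&Tag in 24 libraries. The authors deposited 1 peak list per library. The submitters' processing notes list MACS2 2.2.7.1, Bowtie2 2.3.5.1, ChIPseeker 1.28.3, fastp 0.19.7 and Picard, with mm10 as build. What each tool did and any control library, as well as how duplicate and multi-mapping reads were treated, is not given in the sources used here. Each deposited list gives each peak's fold enrichment, which is a ratio, with its q-value as −log10; the smallest −log10 q was 1.30 to 1.42, so each list holds peaks with q of at most 0.05. Folds are the authors' values and were used only within a list. The lists give no read totals, so depth is unknown.

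Genes came from RefSeq on GRCm38.p6, and peaks on the 19 autosomes and X were used. An overlap of 1 b counted. Presence was compared with two-sided Fisher's exact tests in genes or merged regions with a peak in 2 to 10 of 12 libraries. Covered bases were compared by exact two-sided permutation within subsets (216 arrangements, smallest p 0.00926) or, for subsets, within genotypes (225 arrangements, smallest p 0.00444), over 14945 genes with a peak in 2 or more libraries. P-values were adjusted over all genes tested by the Benjamini-Hochberg method at 0.05. For genotype permuted within subsets, 2768 genes would have to reach the smallest p for 1 call. The sign-flip described below, with a smallest p of 0.03125, would need more. The permutation of genotype was tried on simulated covered bases with independent noise and no gap between replicate numbers, unlike these lists. The sign-flip, the subset permutation and Fisher's test were not simulated. Replicate numbers, taken from the sample titles, were treated as pairs because the deviations of same-numbered WT and KO libraries correlated over genes in every subset, with r of 0.370, 0.585 and 0.674 for H3K4me3 and 0.253, 0.491 and 0.655 for CFP1 (CCR6+, NKp46+, DN); the paired test is a sign-flip over 6 pairs (64 patterns). The members and lists were chosen with earlier results of these data known. Pathway genes are named where genotypes differed by 3 or more libraries, at most 4 per list and antibody, and for likeness the 4 highest correlations are named among genes on another chromosome or over 1 Mb away. Of the 20 symbols in the other-cytokine list, 1 was not found and 2 name Iltifb. Python 3.11.15, NumPy 2.4.6, pandas 2.3.3, SciPy 1.17.1, matplotlib 3.10.9 and Biopython 1.88 were used. The alternatives were other windows, stricter peaks, another scale, pairing and leaving out libraries. The gene that drives the Cre and 1 marker gene are not reported here.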

Additional observations from a re-analysis of the deposited data

Results flagged for a closer look

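Of 7 groups of 6 libraries checked, 3 held 1 library far from the others, each because a single library had H3K4me3 in the window and the rest covered 0 b. In KO at Il22 it was NKp46+ replicate 2, with 392 b. In WT at Il17a it was NKp46+ replicate 2, with 367 b. In KO at Il17f it was NKp46+ replicate 1, with 360 b. Chance flags about 1 in 20 groups of continuous values, and values that are mostly 0 meet the criterion more readily. All 3 were NKp46+ libraries; whether that is more than coincidence was not tested.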

How the results depend on the processing

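The Csf2 difference between genotypes stayed negative in 23 of 24 alternatives, and none of the alternatives gave a member an adjusted p under 0.05. Windows of 1 kb and 5 kb, a −log10 q of 2 or more and the replicate block left it at -581.8 b. As 12 others each dropped 1 library, the 23 are not independent of one another. The Csf2 difference was -272.8 to -890.8 b over those 12 fits. Without both short KO lists it was 14.3 b, and its presence difference was then 0 libraries. With replicate 2 alone that presence difference was 0 too. Leaving out 1 library moved its presence difference from -2 to between -2.4 and -1.2, in libraries per 6. The paired analysis (replicate block) left 3 genes at an unadjusted p under 0.05 for H3K4me3 presence, 70 for CFP1 presence and 567 for covered bases, against 30, 604 and 215; per Mb covered the last was 1552, and 1154 with the block as well. The block changed no adjusted call of a member.

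Windows of 1 kb and 5 kb hold no peak of Il22 or Il17a, so their differences were 0. A fold of 5 or more also left H3K4me3 at both at 0, and CFP1 at Il22 at a difference of 0 because 1 WT and 1 KO library remained; the same windows set CFP1 at Il17f to 0, and the fold set all Il17f values to 0. In those narrow windows NKp46+ minus the others at Il17f was -66.25 b. At 50 kb, chosen after the data were seen, CCR6+ minus the others was 8.75 b at Il17a and -128.5 b at Il17f, NKp46+ and DN minus the others at Csf2 were 451.9 b and -182.2 b, and H3K4me3 presence at Il17f differed by 0. At Csf2 NKp46+ minus the others was also 10.1 b with a fold of 5 or more and 1.11 b per Mb covered, and at Il22 DN minus the others was 1.26 b per Mb covered; the causes of these were not tested.

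Subset differences rested on single libraries. Leaving out 1 library in turn gave, at Csf2, -559.8 to 367.2 b for CCR6+, -408.6 to 326.4 b for NKp46+ and -293.4 to 568.1 b for DN. At Il22 DN ranged from -96.75 to 76.25 b. At Il17f CCR6+ ranged from -77.9 to 187.1 b and NKp46+ from -0.5 to 179.5 b, and at Il17a CCR6+ and DN from -61.2 to 0 b and NKp46+ from 0 to 183.5 b. Without both short lists CCR6+ at Csf2 was 215.9 b. For genotype, the ranges were -121.3 to 9.33 b at Il22, -122.3 to 0 b at Il17a and -160.5 to 16.2 b at Il17f. For presence they were -1.2 to 0 at Il17a with either antibody and at Il17f with CFP1, -2 to -0.2 for H3K4me3 at Il22 and Il17f, and -1.8 to -0.4 for CFP1 at Il22. Replicate 1 alone gave 0 for H3K4me3 presence at Il17a and Il17f, 0 b at Il17a, 32.3 b at Il17f and 0 for CFP1 at Il22, Il17a and Il17f; replicate 2 alone gave 0 libraries and 3.33 b for H3K4me3 at Il22.

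Over all genes, leaving out 1 library gave 33 to 145 unadjusted calls for H3K4me3 presence, 105 to 747 for covered bases and 625 to 2094 for CFP1 presence, with 0 to 444 adjusted calls for CFP1. Without both short H3K4me3 lists 372 and 1845 genes had an unadjusted p under 0.05 (presence, covered bases). Without both long KO CFP1 lists 3673 genes did and 1348 passed adjustment. These lists were left out after the data were seen.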
